A study of Mus musculus with 8 samples.

Results

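The adipogenic programme was followed through 10 genes in the leptin receptor-positive (Lepr+) stroma of mouse long bones: Lepr, Adipoq, Lpl, Hp, Pparg, Cebpa, Cebpb, Apoe, Fabp4 and Zfp423. Each was the feature whose symbol equalled the name in all 8 count matrices, giving 10 of the 32285 genes listed. The rule itself used symbols and no measured value, although the genes were picked with earlier results of these data known. Single-cell RNA-seq had been run on cells of femurs and tibiae from female mice, with the marrow flushed, the periosteum removed and haematopoietic cells depleted with beads. Controls carried homozygous floxed alleles of the 3 SOXC transcription factor genes (Sox4fl/fl, Sox11fl/fl, Sox12fl/fl) and no Cre, and SOXC OsxCre mutants carried the same alleles with the OsxCre transgene. Mice were 7 or 13 weeks old, with 2 mice and 2 libraries in each of the 4 groups. OsxCre is driven from osteoblast-lineage regulatory sequences and repressed by tetracyclines, and per the study's methods doxycycline food kept it silent until weaning age. No group carried OsxCre without floxed alleles, so effects of Cre itself and of SOXC loss cannot be told apart here. Each mouse gave 1 library, and p-values below measure the spread between such mice.

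Lepr+ stromal cells surround marrow sinusoids, make niche and bone-regulating factors, and give rise to both osteoblasts and marrow adipocytes. Adipocyte differentiation is driven by a relay of transcription factors, in which the C/EBP proteins and the nuclear receptor PPARG switch on genes for lipid uptake, fatty acid transport and adipokines. Lepr+ stroma is known for carrying part of that programme while holding few lipid droplets, and for losing it as cells become osteoblasts.

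After filtering, 59629 cells were kept and grouped without using the 10 genes. The osteogenic series comprised 3998 Lepr+ MSC-like cells (305 to 834 per mouse), 2299 Lepr+ osteoprogenitor-like (OP-like) cells (149 to 476), 2495 preosteoblast-like (preOB-like) cells (264 to 447) and 24176 osteoblast-like (OB-like) cells (2577 to 4128). Libraries numbered replicate 1 held 127864255 to 156090286 UMIs (unique molecular identifiers, one per captured transcript) and those numbered replicate 2 held 81894604 to 89283370. Any 2 libraries shared 10 to 24 cell barcodes, at most 0.300% of the smaller library. Sox4, one of the deleted genes, was lower in mutants in all 4 types, with log2 fold changes of −1.29, −1.34, −1.35 and −1.57 and adjusted p = 0.0067, 0.00022, 0.00066 and 0.00086 (edgeR). The Lepr+ MSC-like name came from 15 marrow stromal markers other than the 10 genes, among them the niche factors Cxcl12 and Kitl and the adhesion molecule Vcam1, which summed to 24648 to 33086 CPM (counts scaled as defined below) in these cells and 245 to 275 CPM in OB-like cells, a description since they chose the clusters. Hp, Adipoq and Lpl stood among the 10 leading genes of their main cluster although they had been kept out of the clustering and naming.

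On GRCm38 (mm10), with GENCODE gene bounds, the genes were spread over 7 chromosomes. Lepr lies at chr4:101717404-101815352 on the plus strand, Adipoq at chr16:23146536-23158028 (plus), Lpl at chr8:68880491-68907448 (plus) and Hp at chr8:109575128-109579172 (minus). Pparg lies at chr6:115360951-115490399 (plus), Cebpa at chr7:35119293-35121928 (plus) and Cebpb at chr2:167688915-167690418 (plus). Apoe lies at chr7:19696109-19699188 (minus), Fabp4 at chr3:10204088-10208576 (minus) and Zfp423 at chr8:87661810-87959595 (minus). Counts were of whole genes, so exons and isoforms could not be separated.

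Levels are given as CPM, a gene's UMIs per 1000000 UMIs summed over the cells of a type in 1 mouse, with library totals adjusted by the TMM factor of that type (trimmed mean of M values), and are described without a test since the types were defined on the same cells. In controls the mean CPM was highest at the Lepr+ MSC-like end of the series and was lower at each step towards osteoblasts for 9 of the 10 genes, the exception being Cebpb. The span of that gradient differed greatly between genes, from 875-fold for Adipoq to 3.46-fold for Cebpb.

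**Figure D1:**
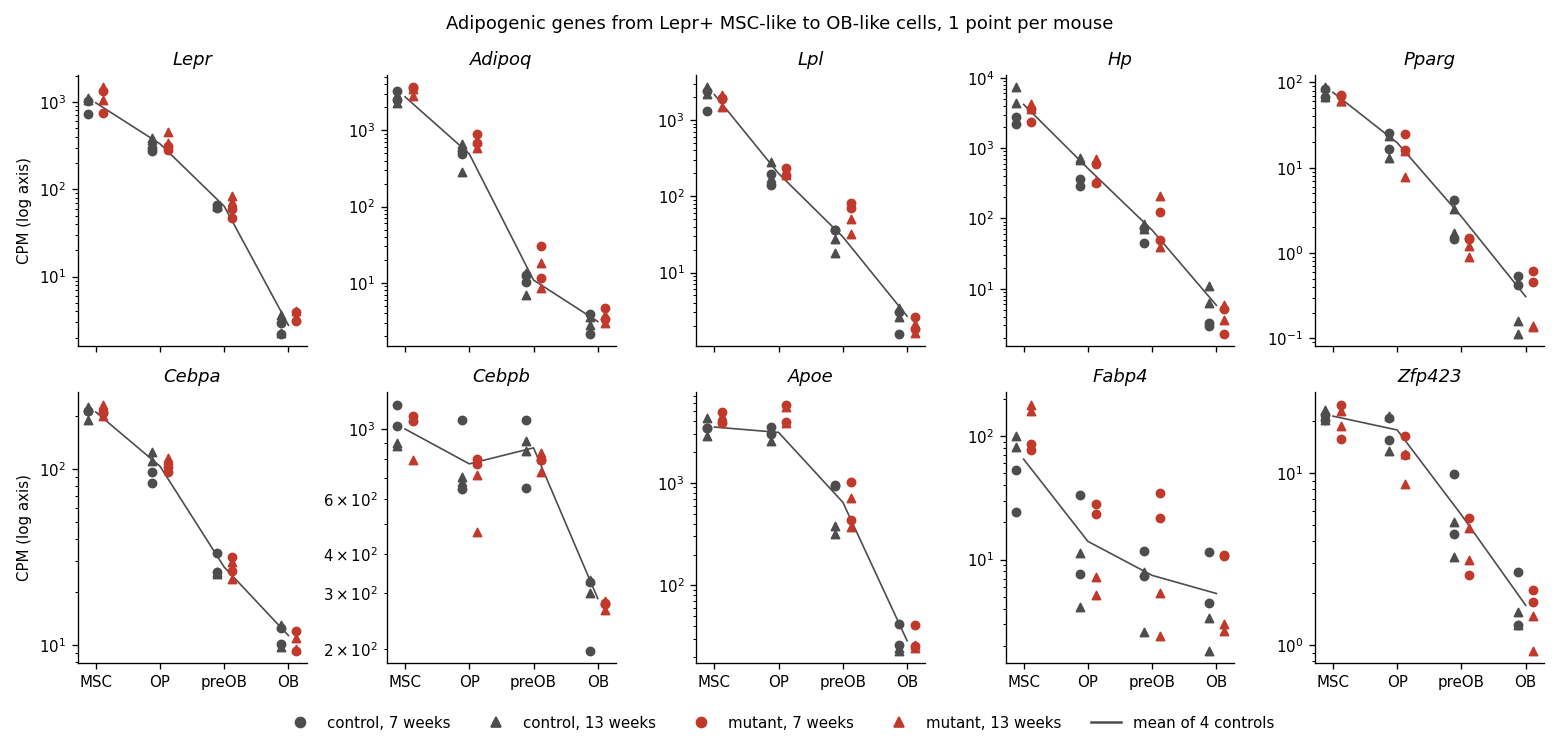
Level of each of the 10 genes (CPM, log axis) in Lepr+ MSC-like, Lepr+ OP-like, preOB-like and OB-like cells, 1 point per mouse, with controls in grey, mutants in red, 7 weeks as circles, 13 weeks as triangles and a line through the mean of the 4 controls. The control mean of Adipoq runs from 2737 CPM in Lepr+ MSC-like to 3.13 CPM in OB-like cells, while that of Cebpb stays between 289 and 999.5 CPM.

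Lepr, the leptin receptor that names the stroma, averaged 977 ± 169.9 CPM in control Lepr+ MSC-like cells (SD, n = 4 mice), 331 ± 55.8 in OP-like, 63.8 ± 2.29 among preOB-like and 2.76 ± 0.649 among OB-like cells. The fold from MSC-like to OB-like cells within a mouse was 293 to 483. The receptor was 2.95-fold lower at the first step and 5.19-fold lower at the second. One UMI or more of Lepr was seen in 79.3% of control MSC-like cells after every cell had been thinned to 2000 UMIs (95.6% unthinned), and in 46.7%, 11.8% and 0.557% of OP-like, preOB-like and OB-like cells.

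Adipoq, which encodes the adipocyte hormone adiponectin, averaged 2737 ± 449.9 CPM in control MSC-like, 489.9 ± 157 in OP-like, 10.9 ± 3.03 among preOB-like and 3.13 ± 0.775 among OB-like cells. Between OP-like and preOB-like cells all 4 mice had a fold of 38.5 to 51.4. Hp, the haemoglobin-binding plasma protein haptoglobin that adipocytes also secrete, averaged 4183 ± 2333, 515 ± 222, 68.0 ± 16.6 and 5.81 ± 3.63 CPM along the same series. Hp was the most variable of the abundant genes between control mice, with 7370.2 CPM in one 13-week control MSC-like sample and 2183 in one at 7 weeks.

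Lpl, the lipase that frees fatty acids from circulating triglycerides, averaged 2162.5 ± 602 CPM in control MSC-like, 199 ± 62.5 in OP-like, 29.4 ± 8.43 among preOB-like and 2.68 ± 0.790 among OB-like cells. Its first 2 steps were 10.9-fold and 6.77-fold. Apoe, the apolipoprotein through which cells take up and export lipid particles, behaved differently at the first step. It averaged 3488 ± 563 CPM in MSC-like and 3094 ± 418 in OP-like cells, and the ratio between them was 0.990 to 1.26, so that 3 of 4 mice were higher in MSC-like cells. The difference came afterwards, with 646 ± 342 CPM among preOB-like and 28.9 ± 8.64 among OB-like cells.

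Fabp4, the fatty acid-binding protein of adipocytes and capillary endothelium, was the least typical of the lipid genes. It averaged 65.0 ± 33.5 CPM in control MSC-like, 14.0 ± 13.0 in OP-like, 7.44 ± 3.77 among preOB-like and 5.30 ± 4.34 among OB-like cells, and the fold from MSC-like to OB-like cells ran from 4.55 to 45.2 between mice. Only 2.80% of thinned control MSC-like cells had a Fabp4 UMI, against 88.1% for Lpl and 96.9% for Apoe. The gene was instead abundant in vessels, at 4258 ± 1135 CPM in endothelial-like and 2047 ± 711 CPM in pericyte-like cells of the controls.

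Among the regulators, Pparg, the nuclear receptor required for fat-cell formation, averaged 76.5 ± 10.6 CPM in control MSC-like, 19.6 ± 5.83 in OP-like, 2.67 ± 1.30 among preOB-like and 0.307 ± 0.205 among OB-like cells. Cebpa, a C/EBP factor that maintains PPARG in adipocytes, spanned less, with 209 ± 14.9, 103 ± 17.4, 27.7 ± 3.86 and 11.3 ± 1.64 CPM. Zfp423, a zinc finger protein of committed preadipocytes, averaged 21.3 ± 1.41 CPM in MSC-like and 17.7 ± 3.99 in OP-like cells, with a ratio of 0.967 to 1.53 between them. It was at 5.68 ± 2.91 CPM among preOB-like and 1.69 ± 0.636 among OB-like cells. After thinning, 3.59% of MSC-like and 4.47% of OP-like control cells had a Zfp423 UMI, so this share was not lower at the first step. For Zfp423, as for Apoe, 3 of 4 control mice were higher in MSC-like than in OP-like cells, whereas the other 8 genes were higher in all 4.

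Cebpb, a C/EBP factor that acts early in adipogenesis and also works in osteoblasts and macrophages, did not follow the gradient. It averaged 999.5 ± 144 CPM in control MSC-like, 774 ± 199 in OP-like and 871 ± 175 in preOB-like cells, and OP-like exceeded preOB-like cells in 1 of 4 mice. OB-like cells held 289 ± 62.7 CPM, below preOB-like cells in all 4 mice. That mean covers OB-like clusters that differed, with control means of 60.8 to 614 CPM (without the TMM factor). After thinning, 68.9% of MSC-like, 57.8% of OP-like, 66.8% of preOB-like and 37.4% of OB-like control cells had a Cebpb UMI.

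Several of the lowest values were no higher than background. Haematopoietic progenitor-like cells, which should lack adipocyte genes, showed a UMI in 0.927% of thinned control cells for Lepr, 1.22% for Adipoq, 1.22% for Lpl, 1.84% for Hp, 0.0742% for Pparg and 1.57% for Fabp4 (3.25%, 3.92%, 4.57%, 6.76%, 0.442% and 6.48% unthinned). The corresponding shares in OB-like cells were 0.557%, 0.747%, 0.589%, 1.33%, 0.0656% and 1.04% (4.46%, 4.80%, 4.11%, 8.41%, 0.470% and 7.10% unthinned). These 6 genes in OB-like cells, and Fabp4 in preOB-like cells at 0.865%, were therefore read as background rather than as expression. Folds that end in OB-like cells are limited by that background for those genes, and the Fabp4 step from preOB-like to OB-like cells lies within it. Fabp4 in OP-like cells, at 1.63%, and Adipoq in preOB-like cells, at 1.58%, were also close to background. The Adipoq fold from OP-like to preOB-like cells and the Fabp4 values of OP-like cells are thus limited too. Apoe could not be read this way, since haematopoietic progenitor-like controls held 769 ± 561 CPM of it. Its OB-like mean was the lowest of 14 cell types, so its last step may end at background. Median depth was 5328 UMIs per control MSC-like cell, 6082 per OP-like, 7073 per preOB-like, 13144 per OB-like and 9705 per haematopoietic progenitor-like cell, and thinning left out 63 of 2074, 30 of 1201, 31 of 1169, 53 of 11638 and 5 of 850 control cells.

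Levels were also compared over 14 cell types of the controls, the osteogenic series included. Some genes were highest in Lepr+ MSC-like cells, and others were as high or higher in vessel cells. Adipoq, Hp, Lpl, Lepr, Cebpa and Apoe were highest in Lepr+ MSC-like cells, and the next Lpl level was 570.2 ± 212 CPM in pericyte-like cells. Among the 14 was a group of 563 cells over both genotypes that scored highest for Sca1+ MSC markers. It was left unnamed since another marker list led. There Lpl was at 471 ± 270 CPM, above every OP-like control (139 to 285). Lepr there was at 213 ± 215 CPM (59.3 to 532), overlapping OP-like (274 to 391) and preOB-like controls (60.5 to 65.6). Pparg did not set the stroma apart, since pericyte-like cells held 88.7 ± 13.3 CPM (70.4 to 102) and endothelial-like cells 72.2 ± 27.7 (47.4 to 101) against 67.5 to 88.1 in MSC-like cells. Cebpb likewise overlapped between pericyte-like (708 to 1900.2 CPM) and MSC-like cells (882 to 1195). Zfp423 was higher in endothelial-like cells (33.2 ± 2.37 CPM, 31.1 to 36.0) than in any MSC-like control (20.2 to 23.3). Cebpa, which also acts in myeloid cells, was at 95.3 ± 29.5 CPM in granulocyte- or monocyte-like cells, and Apoe was at 872 ± 243 CPM in endothelial-like cells.

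**Figure D2:**
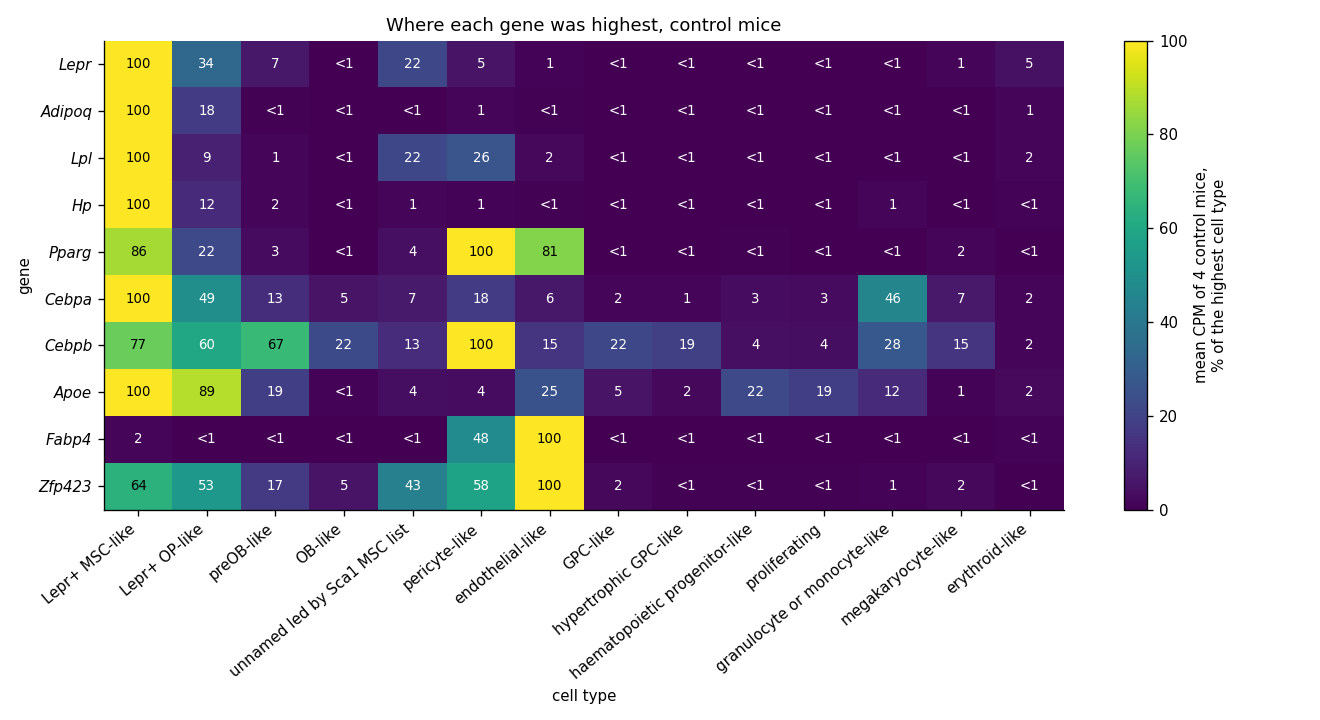
Heat map of the control mean level of each gene (rows) in 14 cell types (columns), as a percentage of that gene's highest type. Adipoq, Hp, Lpl and Lepr are strongest in Lepr+ MSC-like cells, whereas Fabp4 is strongest in endothelial-like cells at 4258 CPM and next in pericyte-like cells at 2047 CPM.

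Genes with the most similar profile were sought for 3 members by Pearson correlation of mean log2(CPM + 1) over these 14 control types, among 10045 genes, as a description of levels that share the same libraries. For Adipoq they were Mccc1 (r = 0.950), Kcnq3 (0.945), Cxcl13 (0.932), Serpina12 (0.932) and Colec11 (0.930), all highest in Lepr+ MSC-like cells. For Fabp4 they were the vascular genes Gja4 (0.959), Lama5 (0.950), Entpd1 (0.941), Tinagl1 (0.930) and Emcn (0.927). Cebpb was nearest to Arhgef17 (0.904), Sowahc (0.902), Rasa2 (0.892), Tmem38b (0.889) and Gdf15 (0.888), a set with lower correlations.

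Start-site windows were read for C/EBP, nuclear receptor and SOX letters because C/EBP proteins, PPARG and the deleted SOXC proteins bind such sequences. RefSeq windows of 300 bases on GRCm38.p6 (250 before to 50 after a start) were found for 7 of the 10 genes, 13 windows in all, and no entry was found for Lpl, Hp and Fabp4. The C/EBP letters TTGCNNAA, on either strand, were in 3 of 13 windows, those of Lepr, Pparg and Zfp423, against 10.8% of 32851 windows of all genes. The nuclear receptor core AGGTCA was in 3 of 13 windows (Pparg and Zfp423) against 16.3%, and its direct repeat with 1 base between copies, the DR1 element of PPARG with RXR, was in 0 against 0.0396%. The SOX letters ACAAAG were in 1 window (Apoe) against 18.7%, and ACAATG in 2 (Apoe and Zfp423) against 12.6%. The stretches below, each of 30 bases and written 5′ to 3′ on the gene's strand with the motif in capitals, show C/EBP letters of Lepr, Pparg and Zfp423, the receptor core at a Pparg start, and the SOX letters of Apoe, a gene compared between genotypes further on. A further C/EBP match of Zfp423, 22 bases after the start, is not shown.
Lepr, chr4:101717914-101717943 (plus), 19 bases after the start: ccgaggaatcgTTCTGCAAatccaggtatg
Pparg, chr6:115422039-115422068 (plus), 16 bases before: accaaccaatcTTTTGCAAgacatagacaa
Pparg, chr6:115421840-115421869 (plus), 215 bases before: tgtaccaagtcTTGCCAAAgcagcagacag
Zfp423, chr8:87959708-87959737 (minus), 131 bases before: gcctgcaaactTTGCACAAaaatccggcaa
Pparg, chr6:115362328-115362357 (plus), 9 bases before, receptor core: agggacgcgaggAGGTCAagaaggggcctg
Apoe, chr7:19699225-19699254 (minus), 54 bases before, SOX: ggtgtccgctccCTTTGTtggcgggggagg
Apoe, chr7:19699315-19699344 (minus), 144 bases before, SOX: gctcttttctttACAATGcaccagaccccg
A match describes letters only, and no factor binding was measured.

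The question of whether SOXC loss altered the programme was addressed by comparing mutants with controls within each type, over mice, with the UMIs of a type summed per mouse. Averaged over both ages, edgeR without pairing called 1 gene of the 10, Lpl in preOB-like cells. It was higher in mutants, with a log2 fold change of 0.99. Of all genes tested, 0.208%, 0.655%, 0.746% and 1.48% were called in MSC-like, OP-like, preOB-like and OB-like cells. Taking same-numbered mice of an age as pairs added calls for Adipoq and Apoe in OP-like cells and Fabp4 in MSC-like cells, all of them higher in mutants. Pairing raised the shares of all genes to 1.38%, 3.49%, 2.96% and 7.47% in the same order. Such shares, here and below, are of edgeR calls at an adjusted p at or below 0.05. None is given for counts at an unadjusted p or by DESeq2. Averaged over both ages, no member was called lower in mutants in these fits. Control and mutant means also differed outside the series. Endothelial-like cells were at 872 and 1231 CPM for Apoe, 13.0 and 24.9 for Adipoq, and 4258 and 5800 for Fabp4. Pericyte-like cells were at 122 and 107 CPM for Apoe, 39.2 and 55.0 for Adipoq, and 2047 and 2621 for Fabp4. Mice of the genotypes overlapped in each of these, and no test is given for those types.

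**Figure D3:**
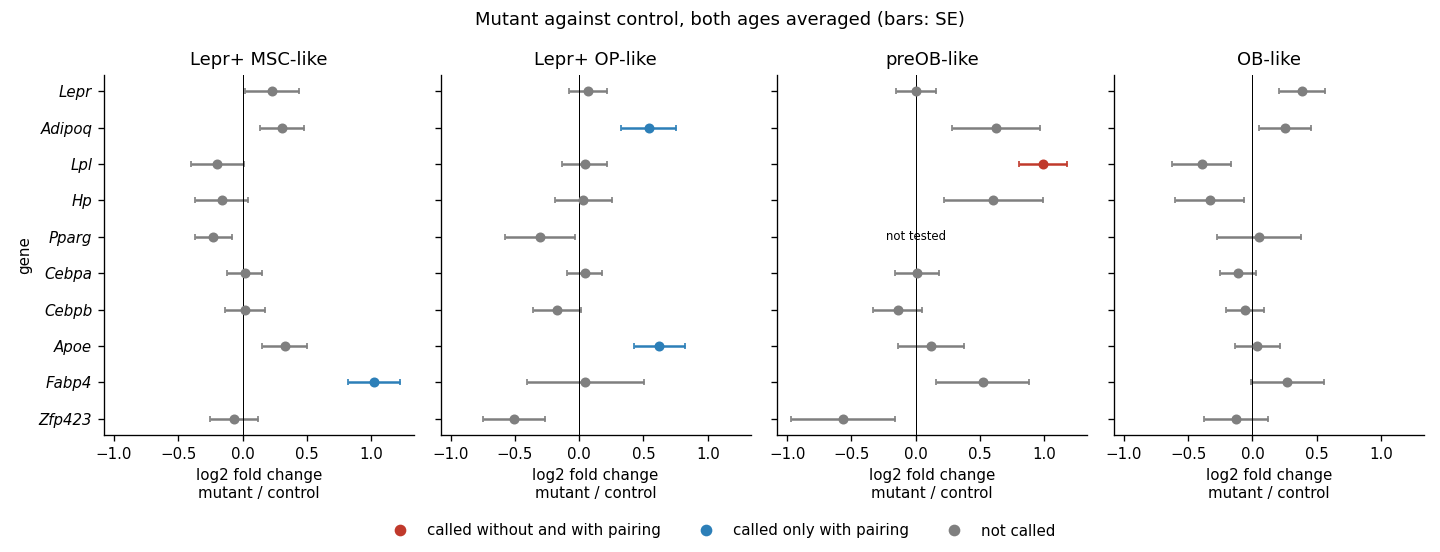
Log2 fold change of mutants over controls, averaged over 7 and 13 weeks, with SE bars, for each gene in each of the 4 types, where a positive value is higher in mutants. Lpl in preOB-like cells (0.99, red) was called with and without pairing, Adipoq (0.54) and Apoe (0.62) in OP-like and Fabp4 (1.02) in MSC-like cells (blue) were called by edgeR with pairing and not without it, and Pparg in preOB-like cells was not tested.

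In preOB-like cells, Lpl was at 36.0 and 35.9 CPM in the 7-week controls and 71.0 and 81.8 in the 7-week mutants, and at 18.3 and 27.3 CPM in the 13-week controls and 32.2 and 51.0 in the 13-week mutants. Both mutants lay above both controls at each age, and the 13-week mutants overlapped the 7-week controls. The log2 fold change was 0.99 (SE 0.19, adjusted p = 0.023, edgeR, 0.97 and adjusted p = 0.00041 with pairing), higher in 4 of 4 pairs and in 1 of 9 members tested, where 0.746% of all 10584 genes tested were called without pairing and 2.96% with it. The thinned share of preOB-like cells with an Lpl UMI was 6.25% and 6.19% in the 7-week controls, 8.88% and 14.4% in the 7-week mutants, 3.27% and 3.52% in the 13-week controls, and 3.18% and 4.30% in the 13-week mutants (23.4%, 12.5%, 25.8%, 20.8%, 11.6%, 9.67%, 10.9% and 8.41% unthinned). By this measure the groups were apart at 7 weeks and overlapped at 13 weeks.

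The Lpl call depended on which cells made up the type and on single mice. It was lost when doublets were kept (log2 fold change 0.72, adjusted p = 0.097), when cells above 5% mitochondrial UMIs were left out (1.03, adjusted p = 0.50) and when libraries were not integrated (0.21, adjusted p = 0.91), and leaving out 1 mouse at a time gave 0.81 to 1.14 with adjusted p = 0.012 to 0.13, not called in 5 of 8 cases. Those were without 7-week control 1 (adjusted p = 0.087) or 2 (0.081), 7-week mutant 2 (0.076), 13-week control 1 (0.13) or 13-week mutant 2 (0.088). The summed level of 15 Lepr MSC markers in preOB-like cells was 1347 to 1357 and 1613 to 2566 CPM in 7- and 13-week controls and 1255 to 1725 and 1708 to 2344 in mutants, so the groups overlapped at both ages. The 16 osteoblast markers were higher in mutants at both ages, at 9176 to 10829 against 11315 to 21626 CPM at 7 weeks and 16058 to 20428 against 21214 to 37033 at 13 weeks. The same markers were also higher in mutant endothelial-like cells, at 2405 to 2599 against 2942 to 3282 CPM at 7 weeks and 1765 to 2235 against 2505 to 3748 at 13 weeks. Their part in the Lpl values was not tested.

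In OP-like cells, Adipoq was at 526 and 492 CPM in the 7-week controls and 682 and 884 in the 7-week mutants, and at 281 and 660.5 CPM in the 13-week controls and 581 and 715 in the 13-week mutants. The groups were apart at 7 weeks and overlapped at 13, while each mutant exceeded the control of the same number. The 15 Lepr MSC markers in OP-like cells summed to 8192 to 8307 CPM in the 7-week controls and 9169 to 10392 in the mutants, apart, and to 12070 to 14617 against 11740 to 12384 CPM at 13 weeks, overlapping, and their part in Adipoq was not tested. The log2 fold change was 0.54 (SE 0.21, adjusted p = 0.466, edgeR) without pairing and 0.59 (adjusted p = 0.0042) with it. Leaving out 13-week control 2 raised the unpaired value to 0.91 and made it a call (adjusted p = 0.041), and leaving out 13-week control 1 lowered it to 0.30.

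Apoe in OP-like cells was at 2964 and 3480.5 CPM in the 7-week controls and 3905 and 5769 in the mutants, and at 2562 and 3368 CPM in the 13-week controls and 3842 and 5521 in the mutants. Every mutant exceeded every control, at both ages. The log2 fold change was 0.62 (SE 0.20, adjusted p = 0.263) without pairing and 0.61 (adjusted p = 0.0052) with it. In OP-like cells edgeR thus called 0 of 10 members without pairing and 2 with it, against 0.655% and 3.49% of all 10690 genes tested. DESeq2 called 0, and 2 were at an unadjusted p under 0.05 without pairing. The 14 pericyte markers summed to less in the mutants, 259 to 336 against 354 to 404 CPM at 7 weeks and 302 to 313 against 377 to 385 at 13 weeks, and the 8 macrophage markers, of a cell type that also makes Apoe, to 14.9 to 16.1 in controls against 16.8 to 22.8 in mutants at 7 weeks and 15.3 to 23.4 against 12.9 to 18.1 at 13 weeks. Their part in these values was not tested. In MSC-like cells Apoe was 0.33 higher on the log2 scale (SE 0.18, adjusted p = 0.82) and was not called with pairing, although both mutants exceeded both controls at each age. The macrophage markers there were at 16.8 to 25.3 CPM against 23.7 to 24.5 in mutants at 7 weeks and 13.2 to 18.3 against 18.8 to 21.3 at 13 weeks, apart at 13 weeks only, and their part was not tested.

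In MSC-like cells, Fabp4 was at 24.3 and 52.8 CPM in the 7-week controls and 86.5 and 77.7 in the mutants, and at 101 and 82.1 CPM in the 13-week controls and 161 and 179.9 in the mutants. Mutants were above controls at each age with no overlap. The log2 fold change was 1.02 (SE 0.20, adjusted p = 0.086) without pairing and 1.06 (adjusted p = 0.0041) with it. In these cells edgeR called 0 of 10 members without pairing and 1 with it, against 0.208% and 1.38% of all 11555 genes tested. Without pairing 1 member was at an unadjusted p under 0.05, and DESeq2 called 1, Fabp4 (adjusted p = 0.0032). No share of all genes is given for either. Keeping doublets brought the value to 0.21 (adjusted p = 1), and without 7-week control 2 it was 1.32 and called (adjusted p = 0.016).

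**Figure D4:**
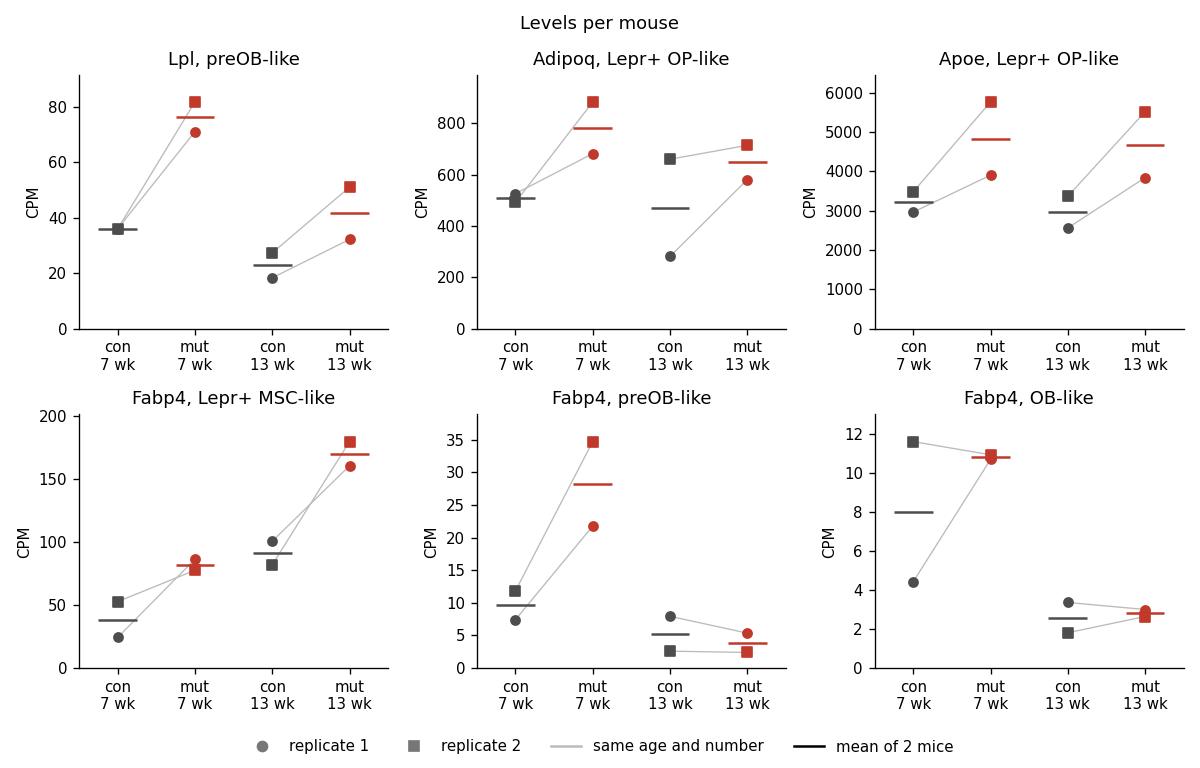
Level (CPM) per mouse of Lpl in preOB-like cells, Adipoq and Apoe in OP-like cells, and Fabp4 in MSC-like, preOB-like and OB-like cells, by genotype and age, with lines joining mice of the same age and number and bars at the mean of 2. Mutants sit above controls at both ages for Lpl (32.2 to 81.8 against 18.3 to 36.0 CPM), for Apoe and for Fabp4 in MSC-like cells.

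Fabp4 UMIs in the MSC-like cells came from few cells. Of 3998 cells, 34 had at least 10 Fabp4 UMIs, a limit chosen after the values were seen, and they held 1682 of 2170 Fabp4 UMIs (77.5%), or 40.8% to 86.8% per mouse. They numbered 1 of 514 and 1 of 330 in the 7-week controls, 4 of 362 and 5 of 568 in the 7-week mutants, 3 of 396 and 6 of 834 in the 13-week controls, and 3 of 305 and 11 of 689 in the 13-week mutants. Their median depth was 8638 UMIs, against 5026 in the other 3964 cells. All 34 also had an Adipoq UMI (96.2% of the other cells), and 33 had at least 2 UMIs of pericyte markers (63.6% of the other cells). At least 2 UMIs of endothelial markers were seen in 11 of 11 such cells at 7 weeks and 10 of 23 at 13 weeks, against 15.6% and 10.9% of the other cells. A UMI of 5 mature adipocyte genes (Cfd, Plin1, Plin4, Cidec or Adig), a smaller set than the 11 markers below, was seen in 18 of the 34. These were 1 of 11 such cells at 7 weeks and 17 of 23 at 13 weeks, against 0.681% and 0.863% of the other cells. The 34 cells carried 437 of the 478 such UMIs of all MSC-like cells. Without these 34 cells Fabp4 was at 11.3 and 31.7 CPM in the 7-week controls and 27.8 and 35.0 in the mutants, and at 14.1 and 16.2 CPM in the 13-week controls and 22.1 and 24.3 in the mutants. These last values are a description, since the cells were removed by their own Fabp4 UMIs. The 12 endothelial markers summed over all MSC-like cells to 126 to 148 and 83.7 to 126 CPM in 7- and 13-week controls and to 135 to 176 and 93.1 to 106 CPM in mutants, overlapping at both ages. In MSC-like cells with fewer than 2 endothelial UMIs, Fabp4 reached 32.4 CPM in the 7-week controls and was at least 24.5 in the 7-week mutants, which overlapped, and at 32.7 and 62.7 CPM in the 13-week controls and 118 and 134 in the 13-week mutants, which did not. The sum of 11 mature adipocyte markers overlapped between genotypes at 7 weeks (2.15 to 9.61 CPM) and was apart at 13 weeks, at 16.3 to 22.3 CPM in controls and at least 36.5 in mutants. Cfd, 1 of the 11, had 258 UMIs in one 13-week mutant, 252 of them in 3 cells. The same list summed to more in vessel cells of the controls, 48.5 to 62.8 CPM in endothelial-like and 46.4 to 146 in pericyte-like cells. It thus did not mark adipocytes alone. The part of either list in the Fabp4 values was not tested further.

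**Figure D5:**
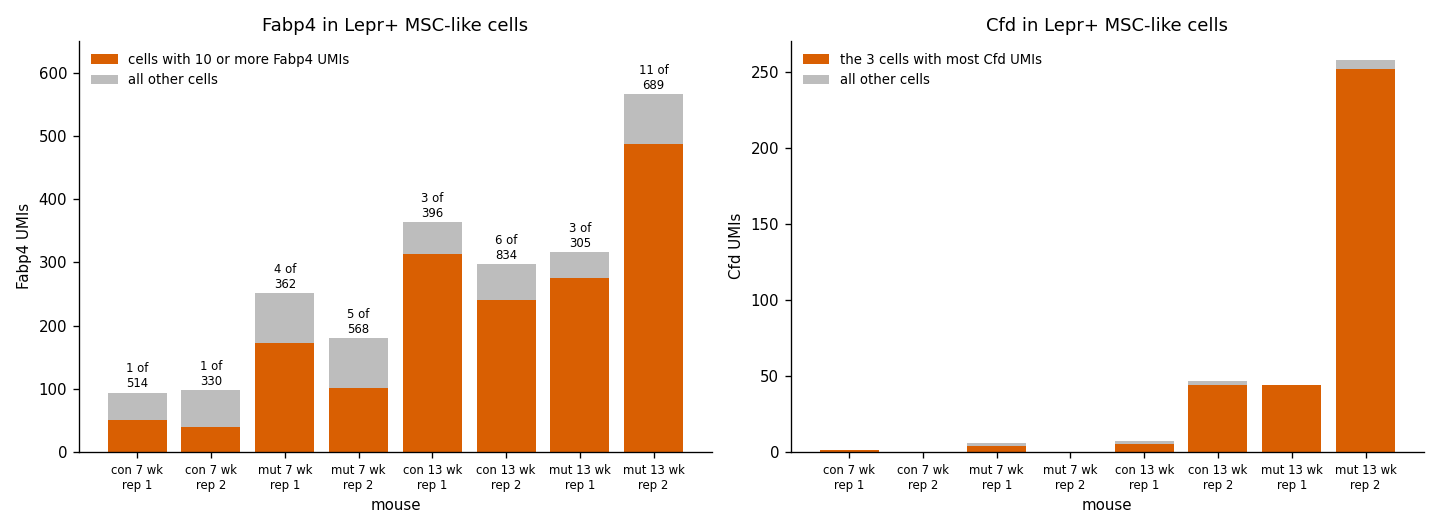
UMIs per mouse in Lepr+ MSC-like cells, split for Fabp4 into cells with at least 10 Fabp4 UMIs and all other cells, and for Cfd into the 3 cells with most Cfd UMIs and all others. The 34 cells rich in Fabp4 hold 1682 of its 2170 UMIs, and 252 of 258 Cfd UMIs of one 13-week mutant are in 3 cells.

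The other members were not called in MSC-like cells. In MSC-like cells Lepr was at 1035 and 725 CPM in the 7-week controls, 1324 and 738 in the 7-week mutants, 1052 and 1096 in the 13-week controls and 1478 and 1043 in the 13-week mutants, with overlap at both ages (log2 fold change 0.23, SE 0.21, adjusted p = 0.96). Adipoq in the same cells was at 3277 and 2489, 3664 and 3538, 2266 and 2916, and 3493 and 2845 CPM in the same order, with overlap at 13 weeks only, and its log2 fold change was 0.31 (SE 0.17, adjusted p = 0.84, 0.36 with pairing). Cebpa and Cebpb were both at 0.02 and Pparg at −0.23 (SE 0.14). Pparg was at 67.6 and 82.9 CPM in the 7-week controls against 68.6 and 71.3 in the mutants, which overlapped, and at 67.5 and 88.1 CPM in the 13-week controls against 60.3 and 61.0 in the mutants, where both mutants were lower. Lpl, Hp and Zfp423 differed by −0.20, −0.16 and −0.06 on the log2 scale. Lpl was at 2417 and 1308 CPM in the 7-week controls and 1961 and 1882 in the mutants, which overlapped, and at 2225 and 2699.6 CPM in the 13-week controls and 2151 and 1496 in the mutants, where both mutants were lower.

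In OB-like cells 0 of 10 members were called by edgeR with or without pairing or by DESeq2, with 0 at an unadjusted p under 0.05, against 1.48% of all 14487 genes (7.47% with pairing). The widest differences there were Lepr at 0.39 and Lpl at −0.39 on the log2 scale, both in genes at background in those cells. With MSC-like, OP-like and preOB-like cells summed (the summed stroma), Fabp4 was 0.90 higher in mutants on the log2 scale (SE 0.23, adjusted p = 0.166, edgeR, 0.93 and adjusted p = 0.013 with pairing). In that sum edgeR called 0 of 10 members without pairing, against 0.509% of 12962 genes (2.74% with pairing). There 1 member was at an unadjusted p under 0.05 and DESeq2 called 1. At single ages the summed stroma had 0 members called at either age, against 0.00771% of all genes at each (0.579% and 0.54% with pairing), with 1 and 2 at an unadjusted p under 0.05. Across the list, 6 of 10 members had positive log2 fold changes in MSC-like, 7 of 10 in OP-like, 7 of 9 in preOB-like and 5 of 10 in OB-like cells. Their medians were 0.02, 0.04, 0.12 and −0.01, beside medians between −0.01 and 0.00 over all genes tested.

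Within single ages, 0 members were called without pairing in any of the 4 types by edgeR or by DESeq2. Of all genes, edgeR called 0%, 0.103%, 0.0472% and 0.104% at 7 weeks and 0%, 0.122%, 0.085% and 0.269% at 13 weeks, in MSC-like, OP-like, preOB-like and OB-like cells. At an unadjusted p under 0.05 there were 1, 0, 2 and 0 members at 7 weeks and 1 in each type at 13 weeks. Those counts are not comparable with the shares called, since the limit differs. Pairing called 2 members at 7 weeks in preOB-like cells, where 0.973% of all genes were called, and 0 at either age in OP-like cells (1.24% and 1.45% of all genes) and OB-like cells (1.51% and 2.3%). Those were Lpl (log2 fold change 1.08, adjusted p = 0.0045, 0.209 without pairing) and Fabp4 (1.56, adjusted p = 0.0079, 0.264 without). Fabp4 in preOB-like cells was at 7.41 and 11.8 CPM in the 7-week controls, 21.7 and 34.7 in the 7-week mutants, 7.94 and 2.60 in the 13-week controls and 5.36 and 2.40 in the 13-week mutants. The mutants were higher at 7 weeks and overlapped the controls at 13 weeks, in a type where Fabp4 was at background in controls. The endothelial marker sum in preOB-like cells was 41.6 to 54.1 CPM in the 7-week controls and 59.4 to 63.4 in the mutants, and 33.8 to 39.7 against 28.1 to 36.6 CPM at 13 weeks. It was thus apart at 7 weeks and overlapped at 13, as Fabp4 did, and its part in the Fabp4 values was not tested.

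The genotype effect was not shown to differ between ages for any member. The test of the difference, 13-week minus 7-week effect, called 0 members in any type with edgeR, against 0% of all genes (0.0187% in OP-like and 0.0138% in OB-like cells with pairing, again with 0 members), with 1 member at an unadjusted p under 0.05. That member was Fabp4 in preOB-like cells, with a difference of −2.09 (adjusted p = 1). Hp showed opposite signs at the ages in MSC-like cells, 0.28 at 7 weeks and −0.60 at 13 weeks, and likewise 0.49 and −0.43 in OP-like and 0.22 and −0.88 in OB-like cells. In MSC-like cells it was at 2733 and 2183 CPM in the 7-week controls, 2361 and 3601 in the 7-week mutants, 7370.2 and 4444 in the 13-week controls and 3605 and 4176 in the 13-week mutants. The groups overlapped at 7 weeks, both mutants were below both controls at 13 weeks, and the difference between ages was −0.88 (adjusted p = 1).

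Between ages, with genotypes averaged, edgeR called members in preOB-like and OB-like cells and none in MSC-like or OP-like cells, where DESeq2 called 2 and 0. In preOB-like cells 2 of 9 members were called, against 3.08% of all genes, and in OB-like cells 2 of 10, against 1.79%. Fabp4 fell with age in both, by 1.72 (SE 0.34, adjusted p = 0.011) and by 1.76 (SE 0.29, adjusted p = 0.016) on the log2 scale. Fabp4 in OB-like cells was at 4.42, 11.6, 10.7 and 10.9 CPM in the 7-week mice and 1.81 to 3.37 CPM in the 13-week mice, so that all 4 older mice were below all 4 younger ones. The endothelial-like share of kept cells was 4.29% to 12.2% at 7 weeks and 2.79% to 3.77% at 13 weeks, and the endothelial marker sum was 17.3 to 24.3 against 10.5 to 15.5 CPM in OB-like cells and 41.6 to 63.4 against 28.1 to 39.7 in preOB-like cells. These moved with Fabp4, which was at background in controls of both types, and their part in it was not tested.

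Lpl in preOB-like cells also fell with age, by 0.79 (SE 0.19, adjusted p = 0.031), and lost its call in 5 of 8 cases when 1 mouse was left out (adjusted p = 0.014 to 0.19). It was −0.25 without integration (adjusted p = 0.764), −0.55 at 5% mitochondrial UMIs (adjusted p = 0.809), −0.67 with doublets kept (adjusted p = 0.057) and −0.79 by DESeq2 (adjusted p = 0.0556), none of them a call. Pparg fell by 1.83 (SE 0.31, adjusted p = 0.020) in OB-like cells, from 0.420, 0.537, 0.452 and 0.606 CPM at 7 weeks to 0.158, 0.113, 0.134 and 0.139 at 13 weeks, levels at background, and its call was lost in 6 of 8 cases (adjusted p = 0.037 to 0.087). Pparg was at 72.2 CPM in endothelial-like control cells, and the endothelial marker sum of OB-like cells, given above, also fell with age. The part of that sum in the Pparg values was not tested. Fabp4 kept its call in 7 of 8 such cases in preOB-like cells (−1.55, adjusted p = 0.065 without 7-week control 2) and in 6 of 8 in OB-like cells (adjusted p = 0.061 without 13-week mutant 1 and 0.056 without 13-week mutant 2).

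In the stromal types the age values ran in both directions and edgeR called none, while DESeq2 called Fabp4 and Hp in MSC-like cells. Fabp4 in MSC-like cells was 1.17 higher on the log2 scale at 13 than at 7 weeks (SE 0.20, adjusted p = 0.056, 0.00019 by DESeq2), opposite in sign to its value in preOB-like and OB-like cells. The mature adipocyte sum was also higher at 13 weeks in all mice, and the Fabp4 levels without the 34 cells, given above, did not lie above those of 7 weeks at 13 weeks. Those levels are a description only, since the cells were removed by their own Fabp4 UMIs. The part of these cells or of the adipocyte sum in the age value was not tested. Hp in MSC-like cells was 0.82 higher (SE 0.21, adjusted p = 0.21, 0.010 by DESeq2). By edgeR 0 of 10 members were called in MSC-like cells, against 0.104% of all genes, and 0 of 10 in OP-like cells, against 0.711%. At an unadjusted p under 0.05 there were 2 in MSC-like and 3 in OP-like cells. DESeq2 called 2 and 0, and no share of all genes is given for these counts. OP-like Fabp4, close to background, was 1.61 lower (SE 0.42, adjusted p = 0.11) and OP-like Lepr 0.42 higher.

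A wider list of 81 further genes of the adipogenic and lipid pathways was compared in the same fits, of which 61, 55, 52 and 66 had counts enough to be tested in MSC-like, OP-like, preOB-like and OB-like cells. Positive and negative log2 fold changes were balanced, 34 and 27, 25 and 30, 28 and 24, and 29 and 37. Without pairing 1 was called, 1 of 61 in MSC-like cells against 0.208% of all genes. This was Fabp5, which encodes a fatty acid-binding protein related to Fabp4, and it fell while Fabp4 was higher. Fabp5 was at 22.8 and 32.9 CPM in the 7-week controls and 28.2 and 25.1 in the 13-week controls, at most 21.0 in the 7-week mutants and at 4.56 and 8.26 in the 13-week mutants. All 4 mutants lay below all 4 controls, and the log2 change was −1.36 (SE 0.24, adjusted p = 0.041, −1.38 and adjusted p = 0.0016 with pairing), a call that was lost in 7 of 8 cases when 1 mouse was left out (adjusted p = 0.016 to 0.19).

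Pairing brought further pathway calls, 4 of 61 in all in MSC-like cells against 1.38% of all genes. In MSC-like cells Scd2, a fatty acid desaturase, fell by 0.68 on the log2 scale (adjusted p = 0.010), from 61.1 and 59.2 to 34.7 and 45.5 CPM at 7 weeks and from 68.9 and 44.9 to 39.5 and 28.0 CPM at 13 weeks, while the apolipoprotein gene Apod rose by 0.77 (adjusted p = 0.026). In OP-like cells 3 rose, the early B-cell factor gene Ebf2 by 0.61 (adjusted p = 0.016), the leptin feedback inhibitor Socs3 by 0.41 (adjusted p = 0.020) and the monoglyceride lipase gene Mgll by 0.39 (adjusted p = 0.027). Those are 3 of 55 genes, against 3.49% of all genes with pairing. In OP-like cells the unpaired fit had called 0 of 55, with 6 at an unadjusted p under 0.05 and 0 by DESeq2. The 7 lipid synthesis genes tested in OP-like cells all had negative values, with a median of −0.34 and no call.

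In preOB-like cells the retinol carrier gene Rbp4 rose by 1.69 with pairing (adjusted p = 0.0058) and the desaturase gene Scd1 by 0.84 (adjusted p = 0.043), 2 of 52 genes against 2.96% of all genes with pairing, where the unpaired fit called 0 of 52, with 4 at an unadjusted p under 0.05 and 0 by DESeq2. Rbp4 was at 1.76 and 11.8 CPM in the 7-week controls, 6.16 and 13.9 in the 7-week mutants, 2.07 and 10.4 in the 13-week controls and 31.7 and 36.0 in the 13-week mutants. The groups overlapped at 7 weeks and were apart at 13. In OB-like cells pairing called 9 genes, against 7.47% of all genes with pairing, and the unpaired fit called 0 of 66, with 14 at an unadjusted p under 0.05 and 1 by DESeq2. Mgll (0.53), the lipoprotein receptor gene Lrp1 (0.27) and Cebpd (0.25) rose, and those that fell included Fabp5 (−0.39), the lipid synthesis genes Fasn (−0.30) and Me1 (−0.24), the kinase gene Jak2 (−0.33) and the brown fat regulator Prdm16 (−1.37).

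Of the abundant pathway genes of the stroma, Scd2 was the one called between genotypes in MSC-like cells, with pairing only. Ebf1, a factor of stromal and adipocyte precursors, averaged 935 ± 175 CPM in control MSC-like and 48.1 in OB-like cells, and Cebpd averaged 568 ± 143 and the adipogenesis inhibitor Klf2 563 ± 136 in MSC-like cells. The secreted products Rarres2 (chemerin) and Agt (angiotensinogen) were at 663 and 661 CPM, with 7.23 and 56.7 in OB-like cells. Lipid handling genes were lower than these, Angptl4 at 185, Lrp1 at 278, Abhd5 at 77.6, Pltp at 65.1, Scd2 at 58.5 and Acly at 38.6 CPM. Unlike the 10 genes, Pltp was higher in OB-like cells, at 198 CPM. Between ages (13 against 7 weeks, log2 scale) edgeR called Fabp5 (−2.80), Pltp (0.88) and Agt (0.68) in preOB-like cells, against 3.08% of all genes. In OB-like cells it called Rarres2 (0.96), Agt (0.78) and Prdm16 (1.40), against 1.79%.

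Genes of the mature adipocyte were nearly absent from the Lepr+ MSC-like cells. Lep, the leptin gene, had 0 UMIs in every mouse, and Lipe, the hormone-sensitive lipase gene, averaged 2.96 CPM. Cfd, which encodes adipsin, had 1 and 0 UMIs in the 7-week controls, 6 and 0 in the 7-week mutants, 7 and 47 in the 13-week controls and 44 and 258 in the 13-week mutants. It was 5.31 higher at 13 than at 7 weeks on the log2 scale (SE 0.88, adjusted p = 0.047, edgeR), where 0.104% of all genes were called. In mutants Cfd was 2.64 higher (adjusted p = 0.76, 2.78 and adjusted p = 0.032 with pairing). In 13-week control 2 and both 13-week mutants, the 3 cells with the most Cfd held 44 of 47, 44 of 44 and 252 of 258 UMIs. Plin4, a lipid droplet coat gene chosen after its values were seen, had 0 UMIs in all 7-week mice and 2, 4, 15 and 13 UMIs in the 13-week mice.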

How the data were processed

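Single-cell suspensions of 8 female mice were sequenced with the 10x 3′ v3 chemistry, 1 library per mouse. The authors deposited filtered matrices of raw UMI counts per gene and cell barcode, and the submitters' notes name Cell Ranger 6.1.2, Seurat 4.3 and mm10. The gene annotation used for counting is not given in the sources used here.

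Barcodes with 200 to 6000 genes and at most 10% mitochondrial UMIs were kept, and simulated doublets served to remove 9.67% to 11.3% of barcodes per library. Libraries were integrated by reciprocal principal components (Seurat 5.3.0, 2000 variable genes, 30 components, 5 anchor neighbours) and clustered (leidenalg 0.10.2, 20 neighbours, resolution 1), with the 10 genes, the pathway list and the SOXC genes left out. Clusters were named from marker lists when at least 3 markers led, and the preOB rule was set after clusters had been seen. Clusters whose median depth was under 33.3% of their samples' were not given a type, except that clusters named from haematopoietic marker lists were exempt from this limit.

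UMIs were summed per mouse and type, and edgeR 4.0.16 (filterByExpr, TMM, quasi-likelihood F-test, 4 groups, Benjamini-Hochberg over all genes tested, calls at 0.05, R 4.3.3) gave fold changes with their SE. DESeq2 1.42.0 was run as an alternative. The script was tested on simulated counts. Without pairing, 2 mice per group left 4 residual degrees of freedom. edgeR also pooled spread over genes, with prior degrees of freedom of 5.90 to 12.6 in the 4 osteogenic types. The paired fit, with a term for each pair, left fewer residual degrees of freedom, so its p-values lean on pooled spread.

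Pairing comes from the study, which describes sister pairs, and from shared replicate numbers. Deviations of same-numbered mice correlated at 0.181 to 0.414 in the 4 osteogenic types and the summed stroma at both ages, the only blocked fits reported here. In endothelial-like, pericyte-like and the growth plate chondrocyte-like types the correlations were lower, at 0.0656 to 0.245. Replicate number also goes with sequencing depth, so the block removes both.

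Named genes were all members, every pathway gene called with both ages averaged, and the 2 most abundant of each pathway list in control MSC-like cells, and 1 pathway gene called is not reported here. The members and all lists were chosen with earlier results of these data known. Alternatives covered normalization, filters on genes, mitochondrial share and doublets, integration, the paired block and leaving out each mouse. Errors are the spread over mice, which includes counting error.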

Additional observations from a re-analysis of the deposited data

Results flagged for a closer look

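Lepr in preOB-like cells had genotype effects of opposite direction at the ages. The 7-week mutants were at 46.8 and 59.0 CPM, below the controls at 65.6 and 60.5, and the 13-week mutants were at 82.6 and 72.0 CPM, above the controls at 64.2 and 65.0. The 13-week minus the 7-week effect was 0.53 on the log2 scale (edgeR, adjusted p = 1), which does not pass the threshold.

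Cells outside the named types also held the programme. Clusters with Lepr+ MSC markers but few UMIs, 2 clusters of 2192 and 120 cells making up 2.85% to 5.18% of kept cells per mouse, had been left without a type. In the larger one Adipoq averaged 1669 CPM over the 4 controls. Fabp4 averaged 258.3 CPM there, a mean that rests on 13-week control 1 at 876 CPM, since the other 3 controls were at 12.2, 55.1 and 90.2 CPM and averaged 52.5 CPM.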

How the results depend on the processing

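The number of control means lower at each step from MSC-like to OB-like cells, 9 of 10, was 7 with doublets kept, when Apoe and Zfp423 were higher in OP-like than in MSC-like cells, and 9 in the other alternatives that gave it, and could not be had without integration. Of the tested log2 values, 2819 kept direction and side of the threshold, 38 gained a call, 36 lost one and 16 turned. Counts of members called with both ages averaged moved as follows. In MSC-like cells 0 became 1 with DESeq2, with no filter, without integration and with the replicate block. In OP-like cells 0 became 1 with no filter and 2 with the block. In preOB-like cells 1 became 0 at 5% mitochondrial UMIs, with doublets kept and without integration. In the summed stroma 0 became 1 with DESeq2, no filter and the block. At single ages, no filter gave 1 in MSC-like cells at 7 and at 13 weeks, 2 in preOB-like at 7 weeks and 1 in OB-like at 13 weeks (Hp, at −0.88, lower in mutants), all from 0, and the block gave 2 in preOB-like at 7 weeks. Between ages, MSC-like 0 became 2 with DESeq2 and with no filter, and 1 with few-UMI clusters kept, a setting chosen after seeing the data. OP-like 0 became 2 and OB-like 2 became 4 with no filter, and preOB-like 2 became 0 at 5% mitochondrial UMIs and 1 with doublets kept or without integration. Pathway calls in MSC-like cells, 1, became 0 with few-UMI clusters kept, doublets kept or members among variable genes, and 4 with no filter or the block. Pathway calls rose from 0 to 3 in OP-like with the block, to 2 in preOB-like with no filter or the block, and in OB-like to 1 with DESeq2, 3 with no filter and 9 with the block. Among pathway genes at single ages, all 0 without it, the block also gave 2 in MSC-like and preOB-like cells and the summed stroma at 13 weeks, 1 in OP-like cells at each age and 2 in OB-like cells at 7 weeks, and it gave 1 in the summed stroma over both ages. It moved no other count given here and could not be fitted to the age contrast, since pairs lie within an age.

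Leaving out 1 mouse at a time gave 0 to 1 members in MSC-like, OP-like and preOB-like cells and the summed stroma, 0 to 1 pathway genes in MSC-like and preOB-like cells, and between ages 0 to 1 members in MSC-like and OP-like, 0 to 2 in OB-like and 0 to 3 in preOB-like cells. Values that turned were, on the log2 scale, Lepr in MSC-like cells (−0.0185 to 0.41), Fabp4 in OP-like (−0.35 to 1.76) and OB-like cells (−0.11 to 1.29) at 7 weeks, Adipoq (−0.0273 to 1.20) and Hp (−1.06 to 0.00368) in OP-like cells at 13 weeks, Hp in preOB-like cells over both ages (−0.22 to 0.99), at 13 weeks (−0.98 to 1.43) and between ages (−0.38 to 0.85), Apoe in preOB-like cells at 7 weeks (−1.14 to 0.10) and Lpl in the summed stroma (−0.46 to 0.0719). At 5% mitochondrial UMIs Lpl in OP-like cells at 7 weeks became −0.22, and with age Zfp423 in OP-like cells became 0.14 and Cebpa in preOB-like cells 0.21. Without integration Apoe at 7 weeks (0.36), Hp at 13 weeks (−0.14) and Cebpa between ages (0.067) turned in preOB-like cells. None of these main values was a call, and the cause was not tested. The 5% limit kept 639 of 2299 OP-like and 832 of 2495 preOB-like cells, and without integration no OP-like type formed, so no value there was obtained. Low counts, such as those of Pparg in preOB-like cells, and 2 mice per group limit what could be called.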
